A study of Rattus norvegicus with 8 samples.

Results

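The genes followed are 7 markers of adventitial fibroblasts, namely Pdgfra, Scara5, Pi16, Dpep1, Dcn, Lum and Dpt. They were taken by symbol from the 14506 genes tested, and all 7 were found, each with 1 probe set. Samples were the ductus arteriosus (DA), the shunt between pulmonary artery and aorta of the fetus, which shuts in the newborn, and the aorta of full-term rat neonates 1 h after birth. The 4 groups were F344 (Fischer344) DA, F344 aorta, BN (Brown-Norway) DA and BN aorta, with 2 arrays each, from inbred strains for which the labels name no treatment. RNA came from pooled tissues, so each array reads a pool of tissue. The labels do not say that replicates came from separate litters or animals, so the p-values given cover the spread between these arrays alone, which may be technical.

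The adventitia is the outer coat of an artery, and its fibroblasts make the loose collagen that anchors the vessel. Pdgfra marks fibroblasts as a class, and Pi16, Scara5, Dpep1 and Dpt have been used to mark subsets of them in fascia and around vessels. Dcn and Lum encode matrix proteins that fibroblasts secrete in quantity, and smooth muscle cells can make them too. In bulk tissue, fewer cells of a type and less RNA per cell cannot be told apart.

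All values are log2 levels from the arrays, and differences between groups are log2 differences with the standard error of the fit. A gene is said to be called where limma's Benjamini-Hochberg adjusted p over all 14506 genes was under 0.05. Array medians lay between 6.96 and 7.05. Tfap2b, a transcription factor gene of the ductus, lay between 9.25 and 9.92 on the 4 DA arrays and between 5.51 and 6.75 on the 4 aorta arrays, so the arrays matched their tissue labels in this gene. Replicates stood furthest apart in BN DA, where differences between the replicates had an SD of 0.349 over genes, against 0.196 to 0.258 in the other groups. The lymphocyte markers averaged 6.92 on replicate 1 of BN DA, and 5.85 to 5.95 on each other array. Results that use BN DA are therefore given with and without its replicates where a call depends on one. Dim chemosensory receptor genes (1283) had a median difference between DA and aorta of 0.79 in F344 and 0.39 in BN, opposite in sign to most of the marker differences. In a fit without them the marker counts stayed at 4 in F344 and 2 in BN, while the F344 calls over all genes went from 2028 to 982 and the strain-averaged Pi16 call was lost (limma adjusted p = 0.0565).

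Promoters of 5 of the 7 genes were in the RefSeq table (assembly GRCr8). Those of Pdgfra, Pi16 and Dpep1 are shown because these genes differed most between DA and aorta in F344 and went in both directions. Each is the 250 bases before the annotated start, read 5′ to 3′ on the gene's strand. Capitals mark matches to the motifs searched on both strands.
Pdgfra, chr14:33408517-33408766, minus strand: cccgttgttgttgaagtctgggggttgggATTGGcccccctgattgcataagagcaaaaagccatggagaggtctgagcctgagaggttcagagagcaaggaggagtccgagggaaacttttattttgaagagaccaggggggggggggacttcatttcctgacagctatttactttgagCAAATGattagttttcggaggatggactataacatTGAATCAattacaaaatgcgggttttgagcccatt
Pi16, chr20:7377703-7377952, plus strand: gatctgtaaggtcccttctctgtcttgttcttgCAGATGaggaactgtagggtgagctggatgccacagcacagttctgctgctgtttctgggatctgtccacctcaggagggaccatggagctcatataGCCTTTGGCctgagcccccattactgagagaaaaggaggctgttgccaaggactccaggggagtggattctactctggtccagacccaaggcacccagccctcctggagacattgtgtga
Dpep1, chr19:68127908-68128157, plus strand: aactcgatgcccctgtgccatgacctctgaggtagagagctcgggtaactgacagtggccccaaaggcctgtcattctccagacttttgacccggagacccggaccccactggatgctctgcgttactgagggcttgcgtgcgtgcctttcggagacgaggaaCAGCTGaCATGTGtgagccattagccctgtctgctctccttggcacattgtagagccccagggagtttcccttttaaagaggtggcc
The motifs were the TATA box TATAAA (in 12.9% of the 33469 promoters in the table), the CCAAT box CCAAT (34%), the GC box GGGCGG (30.5%), the AP-2 motif GCCNNNGGC (12.6%), the AP-1 motif TGANTCA (6.34%) and the E-box CANNTG (65.5%). Pdgfra had a CCAAT box on the reverse strand at -221 from the start, an E-box at -70 and an AP-1 match at -35. Pi16 had an E-box at -217 and an AP-2 match at -120. Dpep1 had E-boxes at -87 and -80 and none of the other motifs. Thus no motif but the E-box, which most promoters hold, was found in all 3 sequences. A match describes letters only and is no evidence of binding. Lum and Dpt were also in the table, and the TATA box was found in Dpt alone of the 5, at -29.

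The 7 markers did not move as 1 group between DA and aorta. Pdgfra and Scara5 were lower in DA in both strains. Pi16 was lower in DA in F344, and Dpep1 was higher there. Dcn, Lum and Dpt, the matrix genes of the list, were not called in any comparison.

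**Figure D1:**
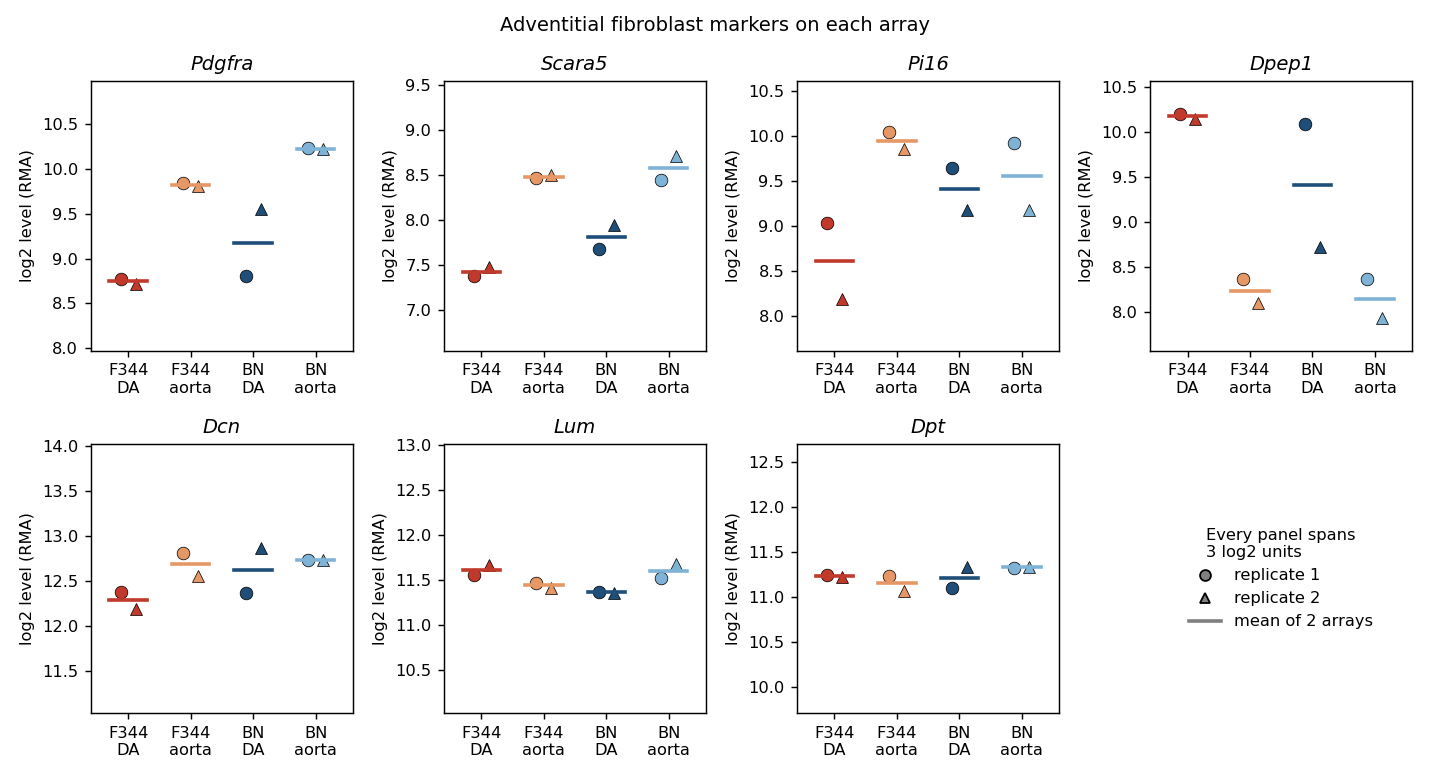
Log2 level (y axis) of each of the 7 markers on each of the 8 arrays, by group (x axis), with circles for replicate 1, triangles for replicate 2 and a bar at the group mean. Pdgfra and Scara5 sit lower on the 4 DA arrays than on the 4 aorta arrays, Dpep1 sits higher, and BN DA has 1 array apart from the other for Dpep1 (10.09 and 8.72).

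Pdgfra encodes the alpha receptor for platelet-derived growth factor, a receptor tyrosine kinase of mesenchymal cells. Its level was 8.77 and 8.72 in F344 DA and 9.84 and 9.80 in F344 aorta. In BN it was 8.81 and 9.55 in DA and 10.23 and 10.22 in aorta. Every DA array lay below every aorta array, and BN DA was the only group whose replicates were far apart. Pdgfra fell 2.11-fold in DA against aorta in F344 (log2 difference -1.08 ± 0.21 SE, limma adjusted p = 0.00899) and 2.06-fold in BN (-1.05 ± 0.21 SE, limma adjusted p = 0.0409). Without BN DA replicate 1 the BN difference was -0.68, and without replicate 2 it was -1.41. The F344 call was lost without any 1 of the 4 F344 arrays, with limma adjusted p between 0.052 and 0.0732 and differences between -1.10 and -1.06. The BN call was lost when only the 4 BN arrays were fitted (limma adjusted p = 0.189), without any 1 F344 array (0.0815 to 0.0866), without BN aorta replicate 1 (0.253) or 2 (0.145), and after cyclic loess (0.0552), centring on brighter genes (0.0835) or array weighting (0.0546).

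Scara5 encodes a class A scavenger receptor that takes up ferritin, and it marks adventitial and other connective tissue fibroblasts. Its level was 7.38 and 7.47 in F344 DA and 8.47 and 8.50 in F344 aorta. The BN arrays gave 7.68 and 7.94 in DA and 8.45 and 8.71 in aorta. No DA array reached the lowest aorta array. Scara5 fell 2.08-fold in F344 DA (-1.06 ± 0.14 SE, limma adjusted p = 0.00219), a call that held without each of the 8 arrays in turn. It fell 1.71-fold in BN DA (-0.77 ± 0.14 SE, limma adjusted p = 0.0338). The BN call was lost when only the 4 BN arrays were fitted (limma adjusted p = 0.186), without any 1 F344 array (0.0735 to 0.0738), without BN DA replicate 1 (0.0551), without BN aorta replicate 1 (0.121) or 2 (0.149), after centring on brighter genes (0.093) and with array weights (0.0788).

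Pi16 encodes peptidase inhibitor 16, a protein of the CAP family (cysteine-rich secretory proteins, antigen 5 and pathogenesis-related 1) that marks fibroblasts of the adventitia. Its level was 9.02 and 8.18 in F344 DA and 10.04 and 9.85 in F344 aorta. The BN values were 9.64 and 9.17 in DA and 9.92 and 9.18 in aorta. The tissues were apart in F344 and overlapped in BN. Replicate 1 was the higher of each pair in all 4 groups, by 0.84 and 0.19 in DA and aorta of F344 and by 0.46 and 0.74 in those of BN. The erythroid marker mean was likewise higher on the replicate 1 arrays (7.75 to 8.61) than on the replicate 2 arrays (7.17 to 7.55), and their part in the Pi16 values was not tested. Pi16 fell 2.54-fold in F344 DA (-1.34 ± 0.31 SE, limma adjusted p = 0.0198), and in BN the difference was -0.14 ± 0.31 SE (limma adjusted p = 0.914). The F344 call was lost without F344 DA replicate 2 (-0.92, limma adjusted p = 0.154) and without F344 aorta replicate 1 (0.123) or 2 (0.0731).

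Dpep1 encodes a membrane-anchored dipeptidase that splits cysteinylglycine from glutathione breakdown and converts leukotriene D4 to E4. Its level was 10.21 and 10.15 in F344 DA and 8.37 and 8.10 in F344 aorta. In BN it was 10.09 and 8.72 in DA and 8.37 and 7.93 in aorta. Every DA array lay above every aorta array, the reverse of Pdgfra and Scara5. Dpep1 rose 3.84-fold in F344 DA (1.94 ± 0.36 SE, limma adjusted p = 0.00808), the largest difference of the 7 genes. This call was lost without F344 DA replicate 1 (limma adjusted p = 0.0535) or 2 (0.0614) and without F344 aorta replicate 2 (0.057). In BN the difference was 1.26 ± 0.36 SE, or 2.39-fold, and was not called (limma adjusted p = 0.131). Without BN DA replicate 2 the BN difference was 1.94 (limma adjusted p = 0.000869), and without BN DA replicate 1 it was 0.57 (0.147).

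Dcn encodes decorin, a small leucine-rich proteoglycan that binds collagen fibrils and growth factors. In F344 its level was 12.38 and 12.19 in DA and 12.81 and 12.56 in aorta. In BN it was 12.37 and 12.86 in DA and 12.74 and 12.73 in aorta. The tissues did not overlap in F344 but did in BN. The differences were -0.40 ± 0.18 SE in F344 (limma adjusted p = 0.165) and -0.12 ± 0.18 SE in BN (0.864), and neither was called.

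Lum encodes lumican, a keratan sulfate proteoglycan of the same family that regulates fibril diameter. The F344 levels were 11.55 and 11.67 in DA and 11.47 and 11.41 in aorta. The BN levels were 11.37 and 11.36 in DA and 11.52 and 11.68 in aorta. DA was above aorta in F344 and below it in BN, with no overlap in either strain. The differences were small, at 0.17 ± 0.12 SE in F344 (limma adjusted p = 0.37) and -0.23 ± 0.12 SE in BN (0.453).

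Dpt encodes dermatopontin, a small matrix protein that binds decorin and collagen. In F344 it was measured at 11.25 and 11.23 in DA and at 11.23 and 11.07 in aorta. In BN it was at 11.10 and 11.33 in DA and at 11.32 and 11.34 in aorta. All groups lay within a narrow band. The differences were 0.08 ± 0.13 SE in F344 (limma adjusted p = 0.695) and -0.11 ± 0.13 SE in BN (0.791).

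**Figure D2:**
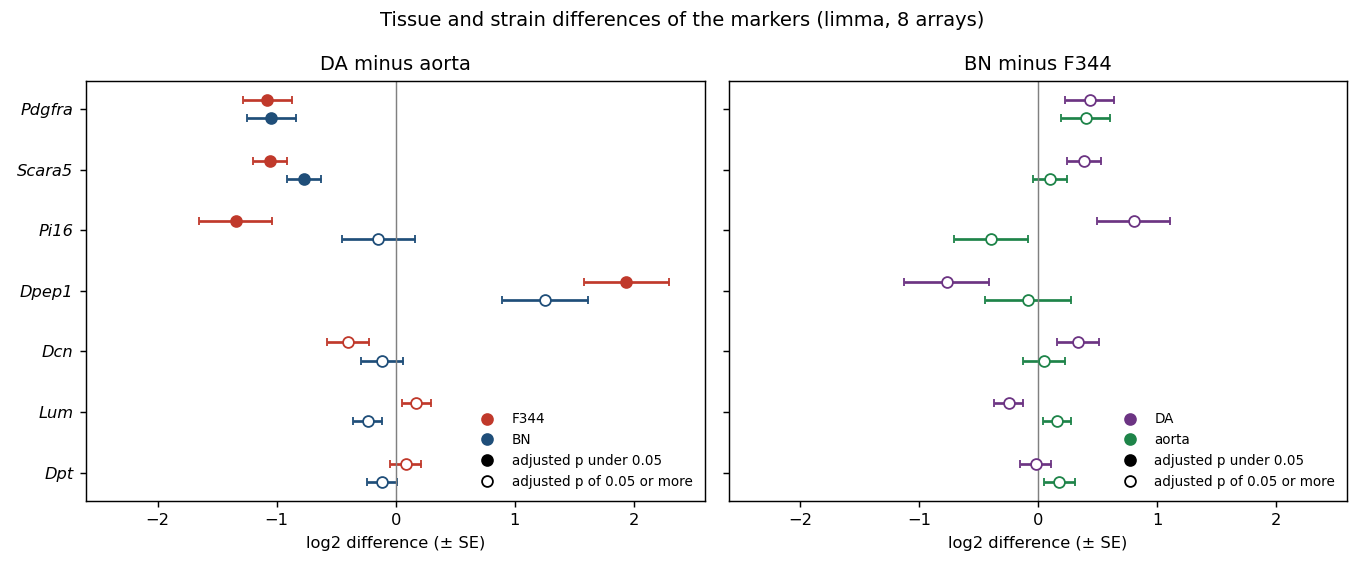
Log2 difference with its standard error for each of the 7 markers (DA minus aorta in each strain, and BN minus F344 in each tissue), with filled symbols where limma called the gene. Pdgfra and Scara5 lie below 0 in both strains, and Dpep1 lies above 0 in both, called in F344 alone.

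Of the 7 markers, limma called 4 in F344, with 1 higher in DA and 3 lower, where 8.87% of all genes tested were called higher and 5.12% lower (14% in all). The median of the 7 was -0.40, against -0.04 over all genes. In BN limma called 2, both lower in DA, where 0.82% of all genes were called lower and 0.986% higher (1.81% in all). The median was -0.14, against 0 over all genes to 2 decimals (-0.0010). The arrays of the tissues did not overlap for 2 markers higher and 4 lower in F344, where this held for 29.6% and 37.8% of all genes, and for 1 higher and 3 lower in BN, where it held for 18.7% and 18.5%. The share of markers higher in F344 was thus near the background. The F344 count fell to 2 without F344 DA replicate 1 or F344 aorta replicate 1 and to 1 without F344 DA replicate 2 or F344 aorta replicate 2. The BN count was 0 without any 1 of the 4 F344 arrays or either BN aorta array, 1 without BN DA replicate 1 and 3 without BN DA replicate 2.

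Averaged over the strains, 4 markers were called, where 10.1% of all genes were called higher and 6.47% lower (16.6% in all). These were Scara5 (-0.91 ± 0.10 SE, limma adjusted p = 0.000669), Pdgfra (-1.06 ± 0.15 SE, 0.00166), Dpep1 (1.60 ± 0.25 SE, 0.00317) and Pi16 (-0.74 ± 0.22 SE, 0.0462). The Pi16 call was lost in 6 of the 11 alternatives that kept all arrays, with limma adjusted p up to 0.0704. It was also lost in 5 of the 8 fits with an array left out, namely without F344 DA replicate 2 (0.159), F344 aorta replicate 1 (0.137) or 2 (0.0932), BN DA replicate 2 (0.0843) and BN aorta replicate 1 (0.163). Dcn was not called (-0.26, limma adjusted p = 0.199), and without BN DA replicate 2 it was (-0.38, 0.0342).

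The strains were compared within each vessel, where arrays are shared with the comparisons above. In DA no marker was called between BN and F344, where 4.53% of all genes were. An unadjusted p under 0.05 in limma was found for 2 of the 7 markers and for 3301 of the 14506 genes. The median difference of the 7 markers was 0.33, against 0 (-0.0030) over all genes. Pi16 (0.80 ± 0.31 SE, limma adjusted p = 0.16), Pdgfra (0.43 ± 0.21 SE, 0.251) and Scara5 (0.38 ± 0.14 SE, 0.152) had every BN DA array above both F344 DA arrays. Dpep1 (-0.77 ± 0.36 SE, 0.243) and Lum (-0.25 ± 0.12 SE, 0.266) had every BN DA array below them. Such lack of overlap held for 25.9% of all genes with BN higher and 24.3% with BN lower. Without BN DA replicate 1, Pdgfra (0.80, limma adjusted p = 0.0122) and Dpep1 (-1.46, 0.00417) were called. Without replicate 2 the differences were 0.06 in Pdgfra and -0.08 in Dpep1, and neither was called. Lymphocyte markers were high on replicate 1, and cartilage markers on replicate 2 (7.75, against 7.09 to 7.41 on the arrays other than it), and their part in the differences was not tested.

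In aorta no marker was called between the strains, where 0.159% of all genes were. No marker had an unadjusted p under 0.05 in limma, and 757 of the 14506 genes did. The median was 0.10, against 0 (-0.0031) over all genes. The largest differences were those of Pdgfra (0.40 ± 0.21 SE) and Pi16 (-0.40 ± 0.31 SE), both with a limma adjusted p of 0.998. Averaged over the tissues, BN and F344 did not differ in any marker by limma, where 2.65% of all genes were called. The median over the 7 was 0.19, against -0.01 over all genes. An unadjusted p under 0.05 in limma was found for 2 of the 7 and for 2754 of the 14506 genes. Without BN DA replicate 1, Pdgfra (0.60, limma adjusted p = 0.0056) and Dpep1 (-0.77, 0.00882) were called, and without replicate 2 they had 0.23 and -0.08.

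Whether the tissue difference changed with strain was tested with the interaction, for which limma called no marker and 0% of all genes (smallest adjusted p over all genes 0.107). Unadjusted, 2 of the 7 markers had p under 0.05 in limma, as did 1403 of the 14506 genes. Pi16 had an interaction of 1.20 ± 0.44 SE (limma adjusted p = 0.445), from -1.34 in F344 to -0.14 in BN. Lum had -0.41 ± 0.17 SE (limma adjusted p = 0.483). For Pdgfra the interaction was 0.03 ± 0.29 SE, an error that leaves room for a difference between strains.

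**Figure D3:**
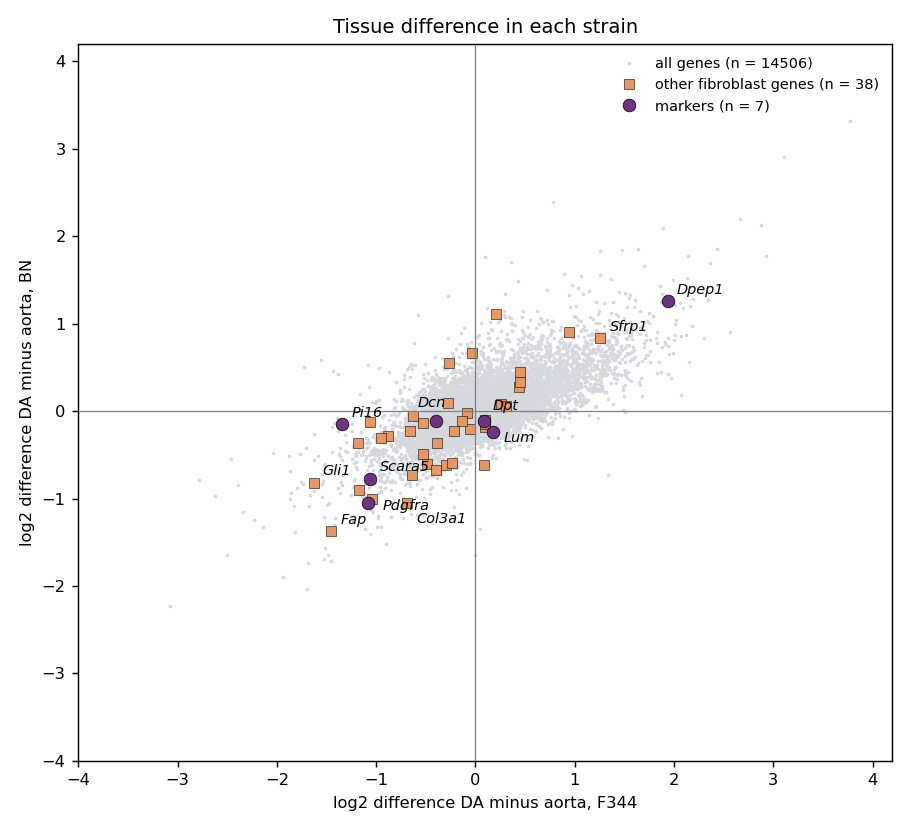
DA minus aorta log2 difference in F344 (x axis) against that in BN (y axis) for the 7 markers (circles), 38 other fibroblast genes (squares) and all 14506 genes tested (grey points). Pdgfra (-1.08 and -1.05) and Scara5 lie below 0 on both axes, Dpep1 lies above 0 on both, and Pi16 lies well below 0 on the F344 axis alone (-1.34 against -0.14).

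Each marker's group levels were put in order. For Pdgfra the order was BN aorta (10.22), F344 aorta (9.82), BN DA (9.18) and F344 DA (8.74), with no overlap between neighbours. For Scara5 it was BN aorta (8.58), F344 aorta (8.48), BN DA (7.81) and F344 DA (7.43), and the 2 aorta groups overlapped. For Pi16 it was F344 aorta (9.94), BN aorta (9.55), BN DA (9.40) and F344 DA (8.60), and only the lowest group stood clear of its neighbour. For Dpep1 it was F344 DA (10.18), BN DA (9.41), F344 aorta (8.24) and BN aorta (8.15), and the aorta groups overlapped. The order of Dcn had overlap at every step. Lum had the highest mean in F344 DA (11.61) and the lowest in BN DA (11.36), and Dpt differed by 0.18 between its highest group mean (11.33, BN aorta) and its lowest (11.15, F344 aorta).

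Likeness of pattern was measured as the root-mean-square distance between log2 values over the 8 arrays, each gene centred on its own mean. Pdgfra and Scara5 were 0.19 apart, and Lum and Dpt 0.12, which both vary little. Pdgfra and Dpep1 were 1.51 apart. The nearest other genes to Pdgfra were Csf1r, the receptor for colony-stimulating factor 1 (0.12), Gria3 (0.13) and Plxdc1 (0.13). For Scara5 they were Aig1 (0.11), Pycr1 (0.13) and Entpd1 (0.13). For Pi16 they were St8sia2 (0.19), Rab7b (0.21) and Niban1 (0.21). For Dpep1 they were Kl, which encodes klotho (0.11), Hspb1 (0.20) and Lrba (0.20). Kl was at 9.18 and 8.83 in DA and 7.09 and 7.04 in aorta of F344. In BN it was at 8.93 and 7.72 in DA and 7.20 and 6.91 in aorta, so it too was low on replicate 2 of BN DA. These genes were the closest by distance over 8 arrays of 4 groups, which shared the tissue difference.

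The families of the markers were then examined gene by gene. Of all genes tested, 8.87% were called higher and 5.12% lower in F344 DA, and 0.986% and 0.82% in BN DA. Among the 7 PDGF ligands and receptors tested, F344 DA had 2 called higher, Pdgfd (0.91) and Pdgfc (0.68), and 2 called lower, Pdgfra and Pdgfrl (-0.89, limma adjusted p = 0.0133). Pdgfrl encodes a receptor-like protein. Pdgfrb, the receptor of mural cells, was at 10.97 and 10.80 in F344 DA and 11.12 and 11.02 in aorta and was not called (-0.19). The ligand genes Pdgfa (-0.00) and Pdgfb (0.10) were not called. The F344 count of 4 was 0 without F344 DA replicate 1 or F344 aorta replicate 1, and 1 without F344 DA replicate 2 or F344 aorta replicate 2. In BN only Pdgfra of the 7 was called, and Pdgfrl had -0.79 (limma adjusted p = 0.0718).

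Scara5 was the only one of 4 class A scavenger receptors tested that was called in either strain. Marco (0.13 in F344 and 0.04 in BN), Colec12 (0.22 and 0.18) and Scara3 (-0.51 and 0.10) were not. In F344 DA, 5.12% of all genes were called lower and 8.87% higher. Of 10 CAP family genes tested, 4 were called lower there and none higher, namely Pi15 (-1.54), Pi16, Crispld2 (-1.02) and Crispld1 (-0.77). The count was 2 without F344 aorta replicate 2. In BN limma called none of the 10 between the vessels, while Crispld1, a secreted protein gene, was higher in BN than in F344 in DA (1.51 ± 0.13 SE, limma adjusted p = 0.00193) and in aorta (1.27 ± 0.13 SE, 0.00941). The aorta call was lost without any 1 of the 4 aorta arrays (limma adjusted p up to 0.172), and the DA call held without each array. Of 11 dipeptidase and glutathione breakdown genes, Dpep1 was called higher and Dpep2, a paralog of Dpep1, lower (-0.82, limma adjusted p = 0.00768) in F344 DA. Dpep2 was at 6.46 and 6.14 in F344 DA and 7.17 and 7.08 in F344 aorta, and its call was lost without F344 DA replicate 2 or F344 aorta replicate 1 (limma adjusted p up to 0.0755).

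The small leucine-rich proteoglycans, the family of Dcn and Lum, moved in both directions. Of 14 tested in F344, 2 were called higher in DA and 2 lower, where 8.87% of all genes were called higher and 5.12% lower. Epyc, which encodes epiphycan, a proteoglycan of cartilage, was at 10.64 and 10.68 in DA and 8.20 and 8.26 in aorta of F344. BN levels were 9.69 and 9.46 in DA and 7.62 and 7.83 in aorta. It rose in DA by 2.43 ± 0.13 SE in F344 (limma adjusted p = 0.000231) and by 1.85 ± 0.13 SE in BN (0.000884), and it was lower in BN DA than in F344 DA (-1.08, 0.00818), a call lost without either F344 DA array. The 8 cartilage markers tested averaged 7.75 on BN DA replicate 2, as given above, and their part in the Epyc values was not tested. Fmod, for fibromodulin, rose by 1.12 ± 0.25 SE in F344 DA (limma adjusted p = 0.0175). Aspn (-0.80) and Omd (-1.35) fell there. The F344 count of 4 was 2 without F344 DA replicate 1 or either F344 aorta array. The family's median in F344 was -0.03, and 0.18 after each array was centred on its brighter genes.

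**Figure D4:**
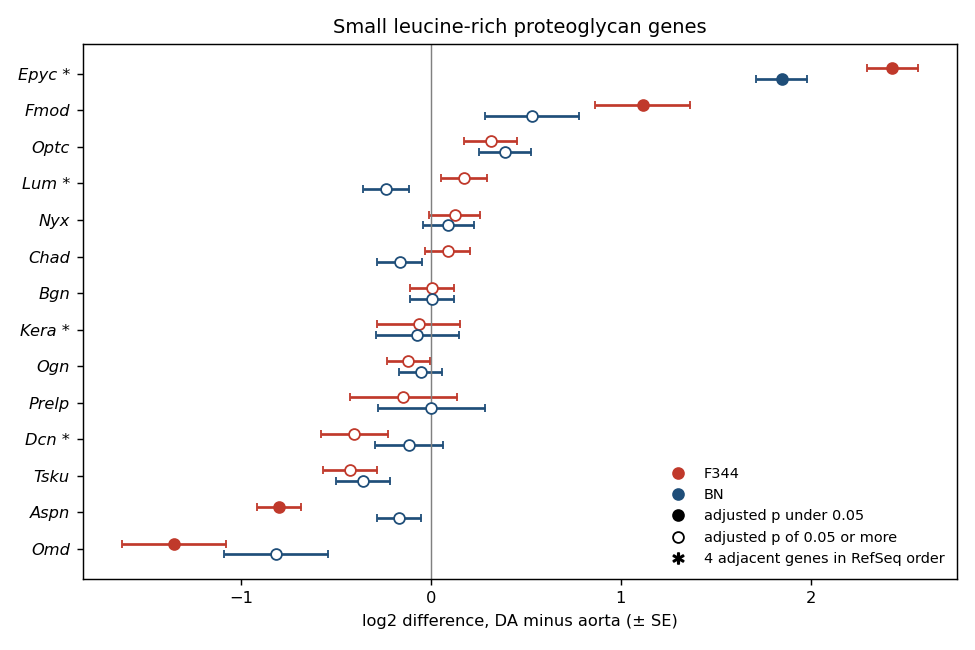
Log2 difference of DA minus aorta, with its standard error, for the small leucine-rich proteoglycans tested in each strain, with filled symbols where limma called the gene. Epyc stands furthest above 0 in both strains (2.43 and 1.85), while Dcn (-0.40 and -0.12) and Lum (0.17 and -0.23) were not called.

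In RefSeq's gene order Dcn, Lum, Kera and Epyc are neighbours in that order on 1 chromosome, with Btg1 before Dcn. The 3 genes between Btg1 and Epyc and Btg1 itself were not called between the vessels in either strain, whereas Epyc was called in both. The difference was -0.06 in F344 and -0.07 in BN for Kera, and 0.01 and 0.06 for Btg1. Kera was dim, with levels of 4.89 to 5.65 under array medians of 6.96 to 7.05, so a difference in it could go unseen. Kit (0.06 in F344 and 0.33 in BN) and Gsx2 (-0.09 and -0.16), which flank Pdgfra, were not called. The flanking genes tested of Pi16 (Mtch1), Dpep1 (Sult5a1 and Chmp1a) and Scara5 (Pbk) were not called either. Atp1b1, a sodium pump subunit gene beside Dpt, was higher in DA in both strains (0.64, limma adjusted p = 0.0085, and 0.99, 0.00648), while Dpt was not called. The F344 call of Atp1b1 was lost without replicate 2 of either F344 group, and the BN call without BN aorta replicate 1.

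Other fibroblast genes are a wider frame for the 7. Of 38 tested (44 listed), 2 were called higher and 13 lower in F344 DA, and 1 and 6 in BN. The shares over all genes were 8.87% higher and 5.12% lower in F344, and 0.986% and 0.82% in BN. The medians of the 38 were -0.27 and -0.19, against -0.04 and 0 (-0.0010) over all genes. Fap, a membrane protease of activated fibroblasts, fell by 1.45 in F344 and 1.38 in BN on the log2 scale, and Gli1, a transcription factor of hedgehog signalling, fell by 1.63 and 0.82. Sfrp1, a Wnt antagonist, rose in DA by 1.26 and 0.83. Col3a1, a fibrillar collagen chain, was lower in DA in both strains (-0.69 in F344 and -1.05 in BN). Its F344 call was lost without either F344 DA array or F344 aorta replicate 2. Without each F344 array the F344 counts were 1 higher and 4 to 7 lower, and without either BN DA array they were 4 and 16. The BN counts were 0 and 3 without any 1 F344 array, 6 and 6 without BN DA replicate 1, 0 and 1 without BN aorta replicate 1, 2 and 2 without BN aorta replicate 2, and 0 and 1 with only the BN arrays fitted. Without BN DA replicate 2 more of the 38 were called lower in BN than in the main fit. After centring on brighter genes the F344 median was -0.06 and the F344 counts were 6 higher and 10 lower. The Fap calls held without each array in turn. In BN the Gli1 call was lost without either BN aorta array, the Sfrp1 call without any 1 F344 array or BN aorta replicate 1, and the Col3a1 call without BN aorta replicate 1.

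Of 29 collagen fibril partners tested (32 listed, 5 shared with the list above), none was called higher in DA. Of all genes, 8.87% were in F344 and 0.986% in BN. Among the 29, 9 were called lower in F344 and 8 in BN, where 5.12% and 0.82% of all genes were. The medians were -0.35 and -0.36, and that of F344 was -0.14 after centring on brighter genes. Col11a1 (-1.07 in F344 and -1.40 in BN), a minor fibrillar chain, and Loxl1 (-0.96 and -0.87), a crosslinking enzyme, were lower in both strains. Their BN calls were lost without BN aorta replicate 1, that of Loxl1 also without any 1 F344 array. The F344 count was 3 to 4 without any 1 F344 array, and the BN count was 2 without any 1 F344 array, 4 without BN DA replicate 1, 0 without BN aorta replicate 1, 3 without BN aorta replicate 2, and 0 with only the BN arrays fitted. Without BN DA replicate 2 more of the 29 were called lower in BN than in the main fit. Dcn, Lum and Dpt, whose products bind these fibrils, were not called. Their F344 differences were -0.40, 0.17 and 0.08, beside the list's F344 median of -0.35.

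Markers of other cells of the vessel wall were read beside them. Smooth muscle markers (11 of 12 tested) had array means of 11.61 to 11.76 in DA and 11.23 to 11.29 in aorta of F344. In BN the means were 11.41 to 11.69 and 11.12 to 11.37. The tissue difference was above 0 in 10 of 11 genes in F344 and 11 of 11 in BN, where the medians over all genes were -0.04 and 0 (-0.0010). Limma called 3 of the 11 higher in F344 DA and 0 in BN DA, where 8.87% and 0.986% of all genes were called higher. Macrophage markers (14 of 14) had means of 7.16 to 7.27 in DA and 7.57 to 7.81 in aorta of F344, and of 7.39 to 7.74 and 7.95 to 8.02 in BN. Csf1r, the gene nearest to Pdgfra, is 1 of these macrophage markers. Endothelial markers (14 of 14) had means of 8.44 to 8.50 in F344 DA and 8.88 to 9.01 in F344 aorta, and of 8.73 to 8.98 and 8.81 to 8.85 in BN. The tissue difference was above 0 in 0 of 14 macrophage genes in F344 and 1 of 14 in BN. For the endothelial genes it was above 0 in 0 of 14 and 8 of 14. Limma called 4 macrophage and 6 endothelial genes lower in F344 DA and 0 of either in BN DA, where 5.12% and 0.82% of all genes were called lower. No marker list was at 0, since array values have no 0. The part of these cell types in the marker differences was not tested.

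**Figure D5:**
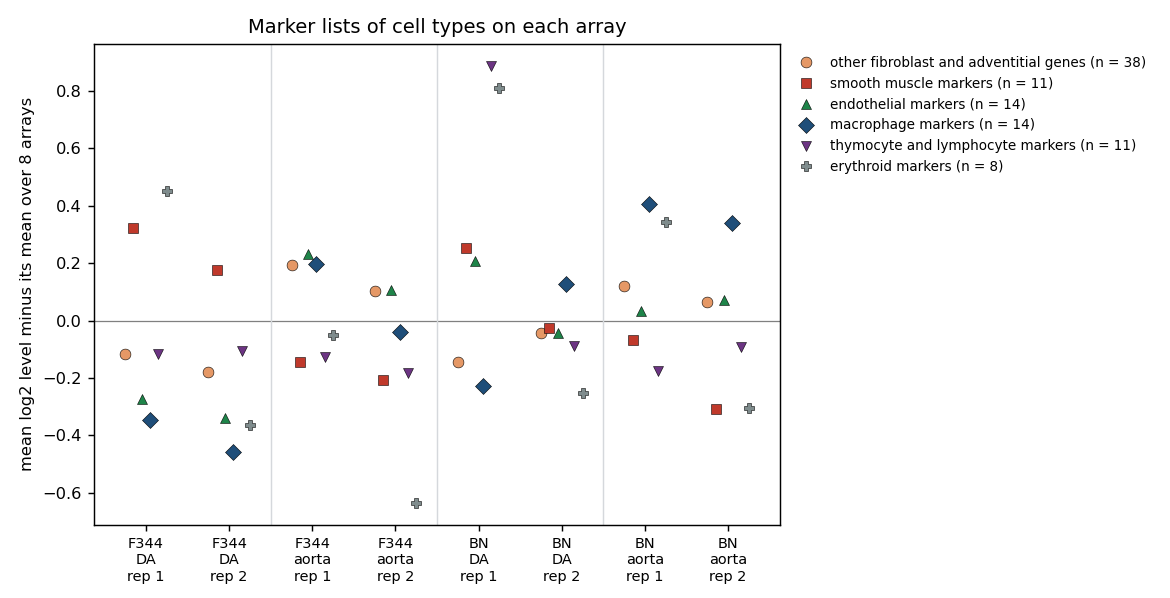
Mean log2 level of each marker list on each of the 8 arrays (x axis), less the list's mean over the arrays (y axis). Within each strain the smooth muscle means are higher in DA and the macrophage means higher in aorta, and the lymphocyte mean stands apart on BN DA replicate 1 (6.92 before centring).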

How the data were processed

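Gene expression was measured on 8 Affymetrix Rat Gene 1.0 ST arrays. The values deposited by the authors run from 1.07 to 14.2 and were read as log2 levels, and RMA is named per the submitters' processing notes. No source used here gives its version or settings, or the build of the annotation. The table held 29215 probe sets. Of these, 15310 had 1 gene symbol, 323 several, and 13582 were not listed. The probe set of highest mean was kept per gene, which left 14506 genes, 14480 of them with an Entrez identifier in RefSeq (GRCr8).

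A limma model (version 3.58.1, R 4.3.3) with 1 mean per group was fitted to all 8 arrays, with 4 residual degrees of freedom and eBayes moderation (5.25 prior degrees of freedom). It was also run on simulated data with independent noise on each array and changes placed in F344 DA alone. That run does not cover deviations shared by same-numbered arrays or the wider spread of BN DA. Tests were two-sided, with adjustment over all genes tested at 0.05. The contrasts were DA minus aorta and BN minus F344 within and averaged over groups, and the interaction. The number of arrays limits the precision.

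Named genes were the 7 markers, the 3 genes of nearest pattern for markers spanning at least 0.5 over the group means (for brighter genes other than receptor genes), the members of the markers' families, up to 4 called genes per other list and contrast, and neighbours in gene order. The members, lists and tests were chosen with earlier results of these data known. The alternatives were other moderation, normalization, centring, filters, probe set rules, array weights, a replicate block, the compared arrays alone, a 2-fold minimum and each array left out.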

Additional observations from a re-analysis of the deposited data

Results flagged for a closer look

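Lum was flagged because its arrays did not overlap between the tissues in either strain, in opposite directions. Both F344 DA arrays (11.55 and 11.67) lay above both F344 aorta arrays (11.47 and 11.41). Both BN DA arrays (11.37 and 11.36) lay below both BN aorta arrays (11.52 and 11.68). Over all genes, arrays did not overlap for 29.6% higher and 37.8% lower in F344 DA, and for 18.7% and 18.5% in BN DA. The share of all genes with opposite directions was not counted. The Lum differences were small, and Pi16 had a larger interaction (1.20 ± 0.44 SE). The interaction was -0.41 ± 0.17 SE and was not called (limma adjusted p = 0.483, unadjusted p = 0.0408). Limma called 0 genes for this interaction, and 1403 of all genes had an unadjusted p under 0.05.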

How the results depend on the processing

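Of the 49 combinations of marker and comparison, none changed sign as a called value under any alternative. The F344 tissue count of 4 was the same number under every alternative other than leaving out an array, and leaving out an array gave 1 to 4. The BN tissue count of 2 was 1 after cyclic loess, 0 after centring on brighter genes, 0 with array weights, 0 with only the 4 arrays compared and 1 at a 2-fold minimum, and leaving out an array gave 0 to 3. The averaged tissue count was 2 at a 2-fold minimum, with 3 to 4 when an array was left out. The strain count in DA was 0 to 2, and the averaged strain count 0 to 2, when an array was left out, while those in aorta and of the interaction stayed at 0. Fits on fewer arrays had fewer residual degrees of freedom, but their counts did not all fall. With only the 4 arrays compared, calls over all genes went from 2028 to 3363 in F344 and from 262 to 16 in BN. The cause of the changes in count was not tested. Correlations of replicate deviations between same-numbered arrays were over 0.1 in 5 of the 6 pairs of groups (0.03 to 0.52). The labels state no pairing, and the main model holds no term for the replicate number. A shift shared by same-numbered arrays is thus not removed from the main results. With the replicate block, tissue calls over all genes went from 2028 to 2875 in F344 and from 262 to 548 in BN. With the replicate block 1 marker was called between the strains in DA, Pi16 (0.80, limma adjusted p = 0.0222), and Dpep1 was called in BN (1.26, 0.0439). Over all genes the F344 tissue count was 2028, with 667 to 3710 under the alternatives, and the BN count was 262, with 16 to 548. Centring on brighter genes moved the median of all genes by 0.21 in F344 and the share of calls higher in DA from 63.4% to 87.6%.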
